A study of Mus musculus with 14 samples.

Results

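Bone morphogenetic proteins (Bmp) and the genes that respond to them were followed through a loss and a gain of the transcription factor Foxa2 in mouse embryonic stem cells (ESCs). The set holds 10 genes of the 24054 in the tables. They are the ligand genes Bmp2, Bmp4 and Bmp7 and the response genes Id1, Id2, Id3, Smad6, Bambi, Msx1 and Msx2. They were chosen by gene name from what is known of the pathway, with earlier results of these data known. All 10 were found by symbol and all passed the filter on low counts. RNA was sequenced in 14 libraries of 6 groups. Undifferentiated ESCs gave 2 libraries each of d0con and d0ko, kept on red-fluorescent embryonic fibroblasts without LIF on the last day and sorted as Cherry-negative cells. Venus-positive cells sorted after 3 days on Wnt3a feeder cells, in endoderm medium with Activin A at 12 ng/ml, gave 3 libraries each of d3con and d3ko. Control cells carried the genotype Foxa2-Venus-KO/+, with the coding region of 1 allele replaced by the nuclear reporter H2B-Venus under the Foxa2 promoter. Knockout (ko) cells carried Foxa2-Venus-KO/Foxa2-Venus-KO, so that the controls too had lost an allele. Each genotype was represented by 2 clones, and replicates 1 and 3 of each day 3 group were the same clone. The line T119 (TetON-Foxa2-Venus) was sorted into Venus-negative cells (d2-FVFn, 2 libraries) and Venus-positive cells (d2-FVFp, 2 libraries). In this line a lentiviral transgene makes Foxa2-Venus when doxycycline is given. Both sorted fractions received doxycycline (40 ng/ml, 48 h) in LIF and serum without feeders, so d2-FVFn is not an untreated control.

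Bmp ligands bind pairs of type I and type II receptor kinases, which phosphorylate the Smad proteins encoded by Smad1, Smad5 and Smad9. These enter the nucleus with Smad4 and switch on target genes, among them the Id genes (inhibitors of basic helix-loop-helix factors) and the homeobox genes Msx1 and Msx2. Smad6 and Bambi are targets that feed back to dampen the signal, the first inside the cell and the second as a receptor without a kinase. In ESCs grown with serum or Bmp, Id proteins are known to hold back differentiation, and in the gastrulating embryo Bmp4 and its antagonists help to pattern mesoderm and endoderm.

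All members are protein-coding genes. In the mouse build GRCm38 the ligand genes are at chr2:133552159-133562896 (Bmp2), chr14:46383525-46390669 (Bmp4) and chr2:172868012-172940321 (Bmp7). The Id genes are at chr2:152736251-152737410 (Id1), chr12:25093799-25096092 (Id2) and chr4:136143822-136145392 (Id3). Smad6 is at chr9:63953076-64022085, Msx1 at chr5:37820491-37824585 and Msx2 at chr13:53466881-53472780.

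RefSeq promoter windows of build GRCm38.p6 were matched by symbol for 6 of the 10 members (Bmp4, Id2, Id3, Smad6, Msx1 and Msx2). The 250 bases before the annotated start are shown for 4 genes. Bmp4 and Id3 are the members called between d3ko and d3con, Id2 had the deepest fall of the Id genes at day 3, and Msx1 had the largest rise at day 3 among the response genes. Capitals mark the GC-rich Smad motif GGCGCC and the Smad box GTCT or its reverse complement AGAC.
Bmp4 (chr14:46390670-46390919, minus strand): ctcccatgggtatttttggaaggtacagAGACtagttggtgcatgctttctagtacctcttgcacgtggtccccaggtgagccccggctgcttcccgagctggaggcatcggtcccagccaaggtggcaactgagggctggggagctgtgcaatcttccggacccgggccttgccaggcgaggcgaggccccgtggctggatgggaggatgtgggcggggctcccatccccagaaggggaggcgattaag
Id3 (chr4:136143572-136143821, plus strand): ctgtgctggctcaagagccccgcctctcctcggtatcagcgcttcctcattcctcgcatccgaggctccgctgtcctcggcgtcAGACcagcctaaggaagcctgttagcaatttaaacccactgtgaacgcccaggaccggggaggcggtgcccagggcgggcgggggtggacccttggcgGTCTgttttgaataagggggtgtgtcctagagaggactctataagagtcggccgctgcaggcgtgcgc
Id2 (chr12:25096093-25096342, minus strand): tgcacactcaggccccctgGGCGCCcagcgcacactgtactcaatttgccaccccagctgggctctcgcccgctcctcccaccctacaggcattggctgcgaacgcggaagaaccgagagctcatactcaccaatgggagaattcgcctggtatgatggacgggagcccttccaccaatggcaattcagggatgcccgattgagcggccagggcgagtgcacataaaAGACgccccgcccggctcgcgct
Msx1 (chr5:37824586-37824835, minus strand): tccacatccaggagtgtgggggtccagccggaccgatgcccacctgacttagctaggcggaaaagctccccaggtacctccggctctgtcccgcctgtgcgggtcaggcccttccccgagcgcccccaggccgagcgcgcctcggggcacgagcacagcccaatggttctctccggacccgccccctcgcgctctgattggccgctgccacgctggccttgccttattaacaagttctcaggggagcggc
GGCGCC, which reads the same on both strands, stood in 1 of the 6 member windows, that of Id2, where it began 231 bases before the start. It was in 9.59% of all 32851 windows of this length. GTCT, searched on both strands, stood in 5 of the 6 (all but Msx1) and in 82.9% of all windows. The Foxa motif TGTTTAC, searched on both strands, stood in none of the 6 and in 3.17% of all windows. The marked matches of the 2 Smad motifs did not overlap, and a match of letters is not a binding site.

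The libraries held 14142788 to 27278237 expected counts. Foxa2 itself was at 34.8 to 58.6 TPM (transcript abundance scaled for gene length and library total) in d3con and at 0.11 to 0.19 TPM in d3ko, and at 2.01 to 2.99 TPM in d2-FVFn and 159.8 to 169 TPM in d2-FVFp. The 6 endoderm markers summed to 760.2 to 1278 TPM in d3con, all 6 above 1 TPM, and to 29.0 to 141 TPM in d3ko, 4 of 6 above 1 TPM, although the d3ko libraries are labelled endoderm as well. The 6 pluripotency markers, each above 1 TPM in all libraries, summed to 13787 to 15663 TPM at day 0 and 562 to 985 TPM in d3con. In d3ko they summed to 15431, 2668 and 17364 TPM in replicates 1, 2 and 3. Dppa5a made up most of these sums (14200 and 15543 TPM in replicates 1 and 3), while Pou5f1 was at 522.5, 500.9 and 943.7 TPM in d3ko against 1335 to 1467 TPM at day 0, and Zfp42 at 309, 40.05 and 400.05 TPM against 482 to 575 TPM. The others were not below day 0 throughout d3ko. Nanog was at 254, 240 and 345 TPM against 248 to 335 TPM at day 0. Sox2 was at 89.3, 14.7 and 86.1 TPM against 79.4 to 94.0 TPM. Klf4 was at 55.15, 5.74 and 46.2 TPM against 17.7 to 27.9 TPM. The 9 fibroblast markers, which feeder cells express, summed to 12.2 to 14.25 TPM in d0con, 38.3 to 137 TPM in d0ko, 53.5 to 306 TPM in d3con, 118 to 368 TPM in d3ko and 3.03 to 4.25 TPM in the doxycycline groups, where Postn was at 0 in d2-FVFn. Above 1 TPM in every library of the group were 2, 5, 4, 5 and 1 of the 9 markers, in the same order. In such bulk libraries fewer cells of a type cannot be told apart from less RNA per cell.

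**Figure D1:**
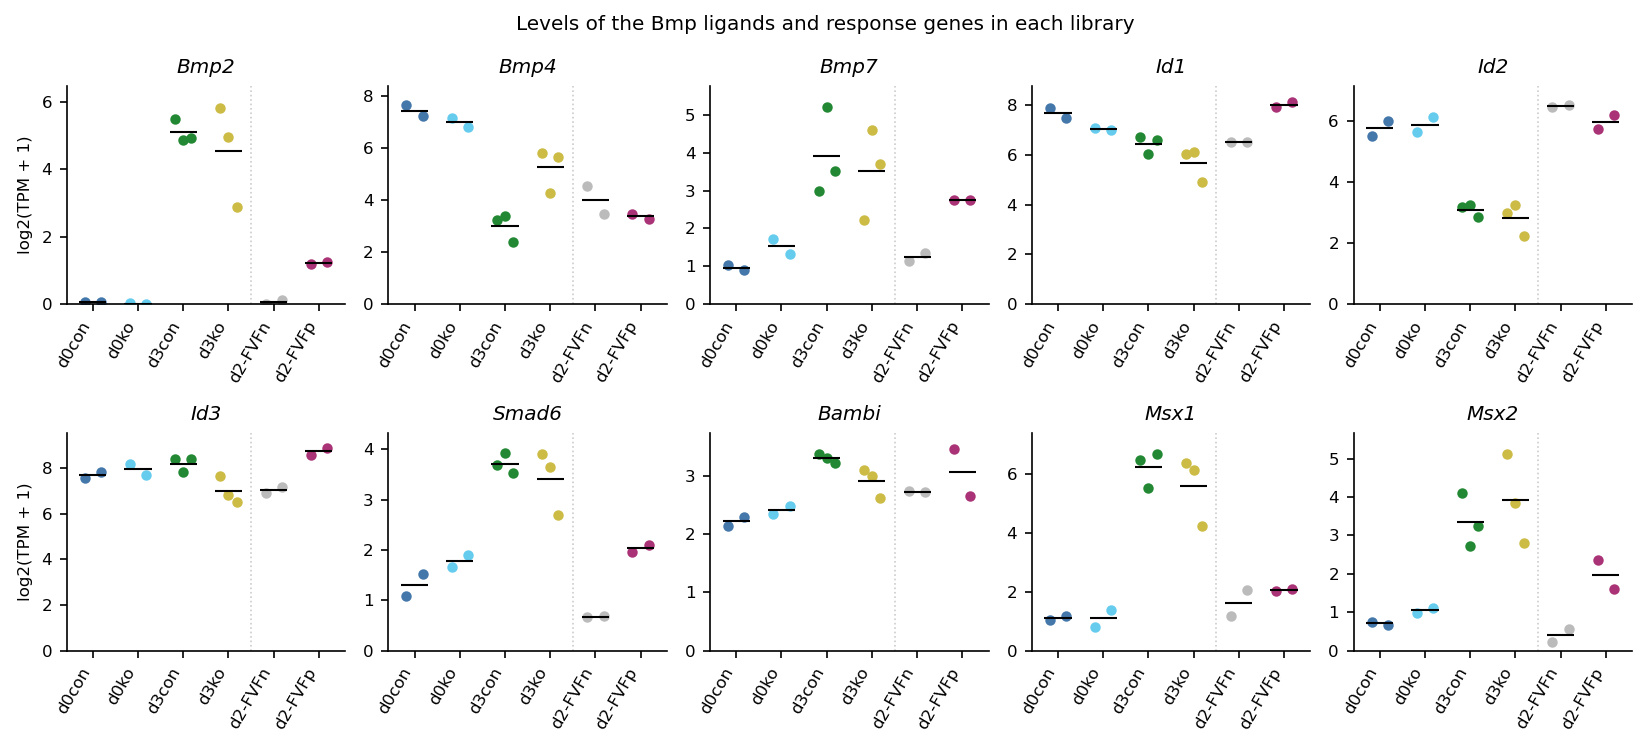
Level of each of the 10 genes as log2(TPM + 1) on the vertical axis, by group on the horizontal axis, with 1 point per library and a bar at the group mean; the dotted line parts the doxycycline line T119 from the others. Bmp2, Msx1 and Smad6 were higher in every day 3 library than in every day 0 library, Id2 was lower in every day 3 library, and Bmp4 in d3ko (18.5 to 55.1 TPM) lay between its day 0 and d3con levels.

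A gene was called when its edgeR quasi-likelihood test gave a Benjamini-Hochberg adjusted p under 0.05 over all genes tested and its log2 fold change was above 1 in size. From d0con to d3con 9 of the 10 members were called, 6 higher and 3 lower, where 35.2% of the 13899 genes tested were called (20.6% higher and 14.6% lower). From d0ko to d3ko 9 were called, 5 higher and 4 lower, against a background of 17.3% (11.6% higher and 5.72% lower). For d3ko against d3con 2 of 10 were called, Bmp4 higher and Id3 lower, against 8.26% of all genes (4.75% higher and 3.51% lower). Without the 75-base libraries (replicate 1 of both day 3 groups) that comparison called neither member and, of all genes, 0 higher and 1 lower instead of 660 higher and 488 lower. For d2-FVFp against d2-FVFn 6 were called higher and none lower by edgeR or DESeq2, against 8.43% of 12943 genes (6.96% higher and 1.47% lower), and 1 member, Id2, was lower at an unadjusted p under 0.05. Of these, Bmp2, Smad6 and Msx2 reached the filter on low counts only in the d2-FVFp libraries, so their direction was fixed in advance. In the day comparisons the same held for Bmp2, which reached the filter only at day 3. The median log2 fold change of the 10 was 1.95, 1.17, -0.35 and 1.57 in these comparisons, against 0.07, 0.07, 0.02 and 0.01 over all genes tested. The comparison of d3ko with d3con shares its libraries with both day comparisons, so the counts are not separate evidence.

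Between d0ko and d0con none of the 10 was called by edgeR or by DESeq2, none had an unadjusted p under 0.05, and the background was 0% (195 of 13899 genes had an unadjusted p under 0.05). The interaction of genotype and day, which asks whether the day 3 change differed between ko and control, called none of the 10 with edgeR against a background of 0%. At an unadjusted p under 0.05 it held 2 members, Bmp4 and Id3, and 1840 of all genes. DESeq2 called 1 member in the interaction, Bmp4, and 299 genes higher and 266 lower of all genes.

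Bmp4, a ligand that ventralizes mesoderm in the embryo, was by far the most abundant of the 3 ligands in ESCs, and it was the 1 ligand called between d3ko and d3con. It stood at 198 and 147 TPM in d0con and at 140.0 and 111 TPM in d0ko. By day 3 it was at 8.30, 9.34 and 4.16 TPM in d3con but at 55.1, 18.5 and 49.2 TPM in d3ko. Every d3ko library was above every d3con library and below every day 0 library. Bmp4 fell by 4.76 on the log2 scale in the control cells (SE 0.50, adjusted p = 0.00028) and by 1.78 in the ko cells (SE 0.46, adjusted p = 0.0186). Against d3con, the level in d3ko was 2.49 higher on the log2 scale (SE 0.44, adjusted p = 0.0137), and the same-numbered libraries differed by 2.66, 0.98 and 3.62. The interaction, the difference between both declines, was 2.98 (SE 0.67, unadjusted p = 0.00151, adjusted p = 0.153) with edgeR, and DESeq2 called it (adjusted p = 0.000691). Without d3ko replicate 2, which leaves 1 clone in d3ko, edgeR called it too (3.34, adjusted p = 0.0047). In that fit the interaction called 670 of all genes higher and 448 lower, against 0 and 0 with all libraries.

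Within d3ko, replicate 2 had the lowest Bmp4 (18.5 TPM) and the lowest sum of the pluripotency markers (2668 TPM), which is mostly Dppa5a. Replicates 1 and 3 had sums of 15431 and 17364 TPM, with Bmp4 at 55.1 and 49.2 TPM. Replicate 2 was also the only d3ko library of its clone, so clone and marker sum cannot be told apart. The part of cells with these markers in the Bmp4 level was not tested. Over the groups, Bmp4 was highest in d0con, then d0ko and d3ko, without overlap among them, while d2-FVFn overlapped d3ko and d2-FVFp, and d2-FVFp overlapped d3con. The higher level in d3ko was no longer called without d3con replicate 1 (adjusted p = 0.0539), without d3con replicate 3 (adjusted p = 0.0646) or without the 75-base libraries, which are replicate 1 of both groups (adjusted p = 0.146), and with same-clone libraries summed the adjusted p was 0.113. Its log2 fold change lay between 2.17 and 3.04 in all 19 alternatives, and it was called in 11 of them. The fall in ko cells was not called without d0ko replicate 1 (adjusted p = 0.12) or replicate 2 (adjusted p = 0.0629). Chromosome 14, which holds Bmp4, stood 0.18 higher on the log2 scale in d0con replicate 1 than in replicate 2 (median of 307 genes), and its part in the day 0 levels of Bmp4 was not tested.

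Bmp2, a close relative of Bmp4, was nearly silent in ESCs and rose in both genotypes. It had 2 and 2 counts in d0con and 1 and 0 in d0ko. At day 3 it reached 43.5, 28.4 and 29.2 TPM in d3con and 55.0, 30.15 and 6.36 TPM in d3ko, with 1049 to 1841 counts in 5 of the 6 libraries and 339 in d3ko replicate 3. The 2 day 3 groups overlapped, and all 6 libraries were far above day 0. The summed counts per library size were 641 times those at day 0 in control cells (exact 95% interval 250.2 to 2354) and 2505 times in ko cells (449 to 98968), with 4 counts and 1 count at day 0 and intervals that cover counting error only. The rise was called in both (adjusted p = 0.000543 and 0.00131), and d3ko and d3con differed by -0.16 (SE 0.59, adjusted p = 0.893). Without d3ko replicate 3 that difference was 0.33.

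Bmp7, which can pair with Bmp2 or Bmp4, was at 1.04 and 0.87 TPM in d0con and 2.30 and 1.52 TPM in d0ko. It was at 6.89, 36.4 and 10.4 TPM in d3con and at 3.66, 23.1 and 12.1 TPM in d3ko. Replicate 2 was the highest of each day 3 group, d3con and d3ko overlapped (-0.46, SE 0.69, adjusted p = 0.705), and every day 3 library was above every day 0 library. The same replicate had the highest sum of 6 mesoderm markers, 169 TPM in d3con and 309 TPM in d3ko, against 20.6 to 67.6 TPM in the other 4 day 3 libraries (5 of 6 above 1 TPM throughout d3con and 3 of 6 throughout d3ko), and the part of these cells was not tested. Replicate 2 was also the only library of its clone in each of these groups, so clone and mesoderm marker sum cannot be told apart. Bmp7 rose by 4 on the log2 scale in control cells (SE 0.94, adjusted p = 0.00718) and by 2.58 in ko cells (SE 0.86, adjusted p = 0.0497). When the replicate number was the block, the rise in ko cells was 2.29 (adjusted p = 0.0815) and was not called. That block sets d3ko replicate 3 apart, although it is the clone of replicate 1, and with the clone as the block the rise was 2.46 and called (adjusted p = 0.0445). It was not called without any 1 of d0ko replicate 1 (0.174), d0ko replicate 2 (0.23), d3ko replicate 2 (0.103) or d3ko replicate 3 (0.066). The rise in control cells was not called without d0con replicate 1 (adjusted p = 0.0526) or replicate 2 (adjusted p = 0.0584), which leaves a lone day 0 library.

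In TPM, which is per length, the 3 ligands could be summed. Bmp4 made up 98.4% to 99.5% of the sum in the 4 day 0 libraries, 9.50% to 14.1% in d3con and 25.8% to 72.7% in d3ko. Bmp2 made up 38.3% to 74.1% in d3con and 9.39% to 48.3% in d3ko, and Bmp7 was the most abundant of the 3 only in d3con replicate 2 (49.1%). The sum itself was 113 to 199 TPM at day 0 and 43.8 to 114 TPM at day 3.

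**Figure D2:**
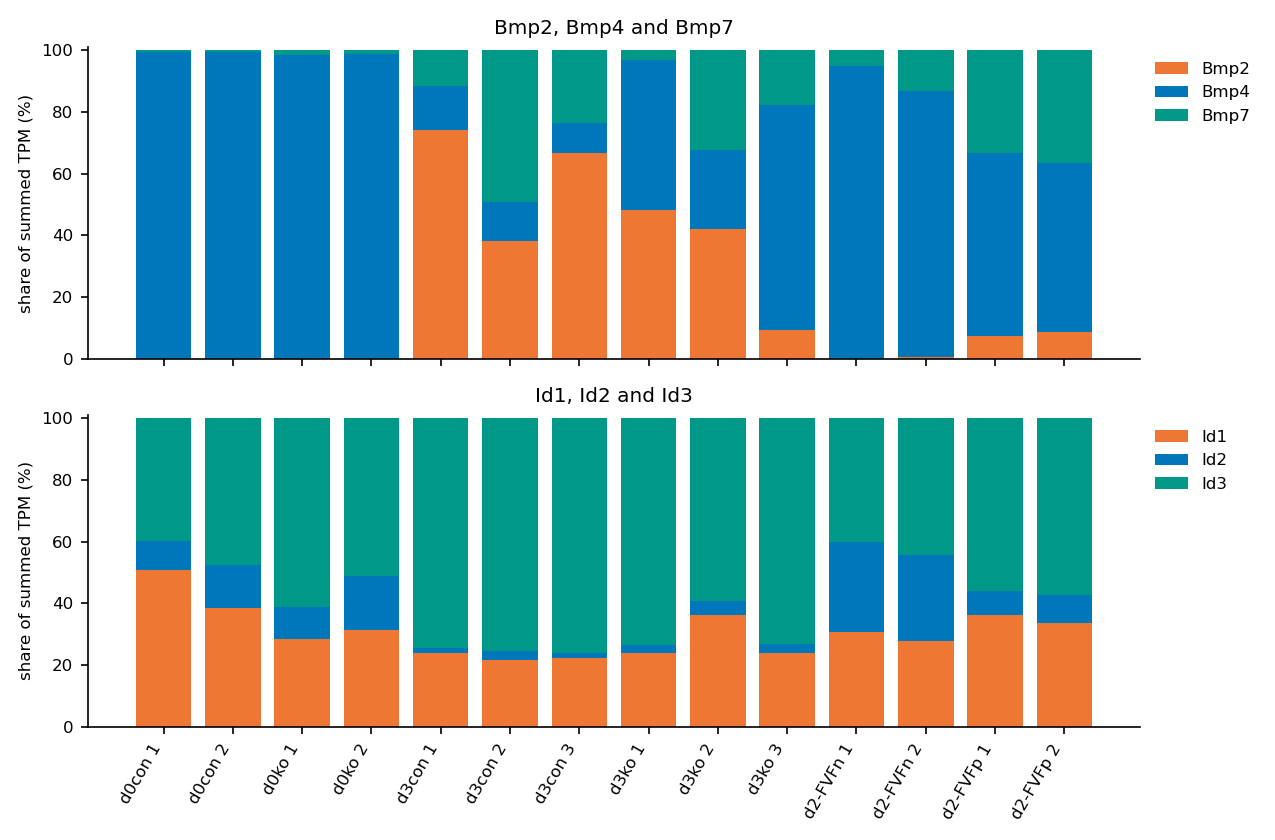
Stacked bars of the share (percent of summed TPM, vertical axis) of Bmp2, Bmp4 and Bmp7 (top) and of Id1, Id2 and Id3 (bottom) in each of the 14 libraries (horizontal axis). Bmp4 fills 98.4% to 99.5% of the ligand bars at day 0 and at most 14.1% in d3con, and Id2 takes 28.1% to 29.4% of the Id bars in d2-FVFn and 7.84% to 8.85% in d2-FVFp.

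In the line T119, Bmp2 and Bmp7 were higher in the cells with induced Foxa2, and Bmp4 was not called. Bmp2 had 0 and 3 counts in d2-FVFn and 34 and 43 counts in d2-FVFp (1.28 and 1.37 TPM), a ratio of 31.0 (exact 95% interval 10.2 to 154, counting error only) that was called higher (adjusted p = 0.01). Its level was below the 6.36 TPM of the lowest day 3 library. Bmp7 was at 1.20 and 1.54 TPM in d2-FVFn and at 5.73 and 5.74 TPM in d2-FVFp, a rise of 2.01 on the log2 scale (SE 0.27, adjusted p = 0.00511). Bmp4 was at 22.5 and 9.89 TPM in d2-FVFn and 10.1 and 8.60 TPM in d2-FVFp, groups that overlapped and were not called different (-0.83, SE 0.38, adjusted p = 0.168). Bmp4 made up 85.9% to 94.9% of the 3 ligands in d2-FVFn and 54.7% to 59.1% in d2-FVFp.

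Of the Id genes, Id1 and Id2 fell with differentiation in both genotypes, and Id3 was called lower in d3ko against both d0ko and d3con. Id3, the most abundant of the 3 at day 3, stood at 185 and 222 TPM in d0con and at 331, 224 and 330.6 TPM in d3con, groups that did not overlap but were not called different (0.33, SE 0.34, adjusted p = 0.432). It stood at 288 and 208 TPM in d0ko and at 199, 112 and 91.0 TPM in d3ko, where every day 3 library was below every day 0 library. Id3 fell by 1.07 on the log2 scale in ko cells (SE 0.33, adjusted p = 0.0381), a call lost without any 1 of 4 libraries: d0ko replicate 1 (adjusted p = 0.248), d0ko replicate 2 (0.0745), d3ko replicate 2 (0.0799) or d3ko replicate 3 (0.0754). Between the day 3 groups Id3 was lower in d3ko without overlap (log2 fold change -1.15, SE 0.30, adjusted p = 0.0439), and the same-numbered libraries differed by -0.80, -1.01 and -1.80.

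The interaction for Id3 was -1.40 (SE 0.48, unadjusted p = 0.0162, adjusted p = 0.262), so a different course in the genotypes was not shown. The lower level of Id3 in d3ko kept its direction in all 19 alternatives (-1.56 to -0.93), and its call in 8 of them. It was not called without d3con replicate 1 (adjusted p = 0.137), d3con replicate 3 (0.136), d3ko replicate 2 (0.0549) or d3ko replicate 3 (0.128), nor without the 75-base libraries (0.126), with the clone as a block (0.0657) or with same-clone libraries summed (adjusted p = 0.11).

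Id1, a direct Bmp target, was at 235 and 179.7 TPM in d0con and at 133 and 127 TPM in d0ko, groups that did not overlap but were not called different (-0.71, SE 0.38, unadjusted p = 0.093). At day 3 it was at 106, 64.3 and 97.0 TPM in d3con and at 64.8, 68.0 and 29.5 TPM in d3ko. All day 3 libraries lay below all day 0 libraries, and the 2 day 3 groups overlapped. Id1 fell by 1.43 on the log2 scale in control cells (SE 0.34, adjusted p = 0.00752) and by 1.45 in ko cells (SE 0.34, adjusted p = 0.0139), and the interaction was -0.02 (SE 0.49). The fall was not called without d0con replicate 1 in control cells (adjusted p = 0.0606), nor without d0ko replicate 1 (0.0896) or replicate 2 (0.0633) in ko cells. For d3ko against d3con the difference was -0.73 (SE 0.31, adjusted p = 0.163). Without replicate 2 of both day 3 groups, which leaves 1 clone per genotype, it was -1.12 and called (adjusted p = 0.0364).

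Id2 was at 44.8 and 63.7 TPM in d0con and 48.7 and 69.8 TPM in d0ko. It dropped to 8.13, 8.46 and 6.29 TPM in d3con and 6.98, 8.51 and 3.72 TPM in d3ko. Id2 fell by 3.03 on the log2 scale in control cells (SE 0.35, adjusted p = 0.000334) and fell by 3.39 in ko cells (SE 0.35, adjusted p = 0.00076). Both falls were called in each of the 17 alternatives of both comparisons. All 6 day 3 libraries lay below all 4 day 0 libraries. The day 3 groups overlapped, with a difference of -0.27 (SE 0.32, adjusted p = 0.621).

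With induced Foxa2, Id1 and Id3 rose, and Id2 was not called. Id1 went from 90.8 and 90.3 TPM in d2-FVFn to 245.5 and 278 TPM in d2-FVFp, a rise of 1.48 on the log2 scale (SE 0.14, adjusted p = 0.00196). Id3 went from 119 and 144 TPM to 379 and 474 TPM, a rise of 1.65 (SE 0.17, adjusted p = 0.00211). Id2 was at 87.35 and 91.8 TPM in d2-FVFn and at 53.2 and 73.0 TPM in d2-FVFp. Its groups did not overlap, and its difference of -0.55 (SE 0.18, adjusted p = 0.0818) missed the threshold. The sum of the 3 Id genes was 297 to 326 TPM in d2-FVFn and 678 to 825 TPM in d2-FVFp, while at day 3 it was 297 to 445 TPM in d3con and 124 to 271 TPM in d3ko. Of the 6 groups d2-FVFp had the highest mean of Id1 (262 TPM) and of Id3 (427 TPM), with no overlap with the next groups, d0con for Id1 and d3con for Id3. Id2 was highest in d2-FVFn.

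Both feedback inhibitors were at low levels in ESCs. Smad6, the inhibitory Smad of the Bmp branch, was at 1.11 and 1.87 TPM in d0con and 2.16 and 2.76 TPM in d0ko. It was at 11.9, 14.2 and 10.6 TPM in d3con and at 13.98, 11.55 and 5.46 TPM in d3ko, with d3ko replicate 3 the lowest and the day 3 groups overlapping. The rise was 2.84 on the log2 scale in control cells (SE 0.45, adjusted p = 0.00118) and 1.91 in ko cells (SE 0.43, adjusted p = 0.0114). The difference between d3ko and d3con was -0.25 (SE 0.35, adjusted p = 0.69). The rise in ko cells was not called without d0ko replicate 1 (adjusted p = 0.104) or replicate 2 (adjusted p = 0.0651). With induced Foxa2 Smad6 went from 0.59 and 0.61 TPM to 2.90 and 3.31 TPM, a rise of 2.32 (SE 0.37, adjusted p = 0.0095).

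Bambi, the decoy receptor, had the smallest ratio of highest to lowest level of the 10 genes. It was at 3.40 and 3.91 TPM in d0con, 4.07 and 4.60 TPM in d0ko, 9.34, 8.81 and 8.32 TPM in d3con and 7.55, 6.97 and 5.16 TPM in d3ko. All d3con libraries were above all d3ko libraries, and all d3ko libraries above all day 0 libraries. The control rise of 1.07 (SE 0.23, adjusted p = 0.00454) was close to the fold threshold and was not called without d0con replicate 1 (0.97, adjusted p = 0.0494). The ko rise of 0.43 (SE 0.22, adjusted p = 0.169) and the day 3 difference of -0.44 (SE 0.20, adjusted p = 0.187) were not called. It was at 5.67 and 5.57 TPM in d2-FVFn and at 10.01 and 5.31 TPM in d2-FVFp, groups that overlapped (0.40, SE 0.30, adjusted p = 0.39), and without d2-FVFp replicate 1 the difference was -0.11.

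Msx1 and Msx2, homeobox genes of Bmp-responsive embryonic tissue, were nearly silent in ESCs and rose in both genotypes. Msx1 was at 1.05 and 1.28 TPM in d0con and 0.76 and 1.60 TPM in d0ko. It reached 86.4, 45.0 and 102 TPM in d3con and 81.7, 68.1 and 17.8 TPM in d3ko. The rise was 5.86 on the log2 scale in control cells (SE 0.79, adjusted p = 0.000582) and 5.39 in ko cells (SE 0.77, adjusted p = 0.00206), and the overlapping day 3 groups differed by -0.48 (SE 0.51, adjusted p = 0.581).

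Msx2 was at 0.69 and 0.59 TPM in d0con and 0.98 and 1.17 TPM in d0ko. It reached 16.1, 5.64 and 8.56 TPM in d3con and 33.6, 13.4 and 6.02 TPM in d3ko. The rise was 3.79 in control cells (SE 0.83, adjusted p = 0.00506) and 3.87 in ko cells (SE 0.81, adjusted p = 0.00877), and the overlapping day 3 groups differed by 0.79 (SE 0.60, adjusted p = 0.431). Without d3ko replicate 1 that difference was -0.10. The rise in ko cells was not called without d0ko replicate 1 (adjusted p = 0.0864) or replicate 2 (adjusted p = 0.0668).

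Of the Msx genes, Msx2 was called with induced Foxa2 and Msx1 was not. Msx2 had 3 and 11 counts in d2-FVFn and 66 and 38 counts in d2-FVFp, or 0.16 and 0.49 TPM against 4.13 and 2.02 TPM. It rose by 3.12 on the log2 scale (SE 0.64, adjusted p = 0.019), a call that was lost without d2-FVFn replicate 1 (2.60, adjusted p = 0.0861). Msx1 was at 1.27 and 3.20 TPM in d2-FVFn and at 3.02 and 3.28 TPM in d2-FVFp, overlapping groups with a difference of 0.43 (SE 0.48, adjusted p = 0.563). Both stayed below every day 3 library.

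**Figure D3:**
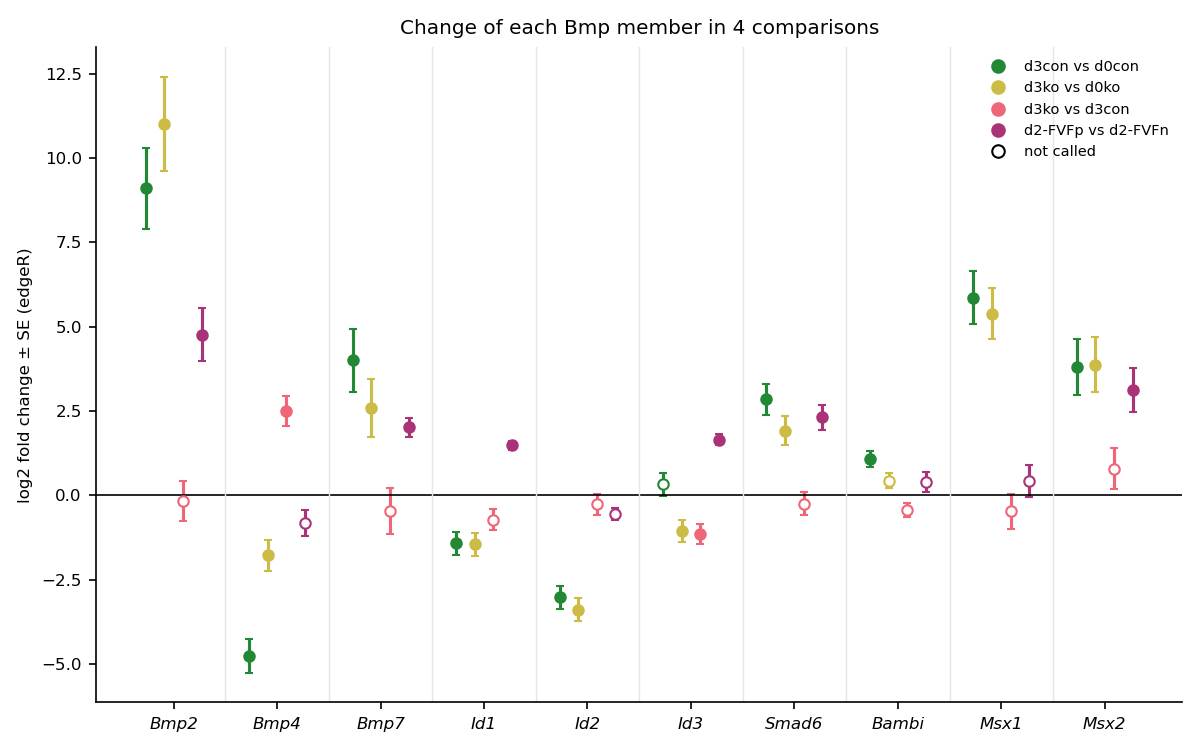
Log2 fold change with its standard error (vertical axis, edgeR) of each of the 10 genes (horizontal axis) in 4 comparisons, with filled points where a gene was called and open points where it was not. In d3ko against d3con the filled points are Bmp4 (2.49) and Id3 (-1.15), and in the doxycycline line the 6 filled points lie between 1.48 and 4.76.

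Fibroblast marker sums were higher in every d3con library than in every d0con library, while d0ko replicate 2 (137 TPM) overlapped the d3ko range of 118 to 368 TPM, and the part of feeder cells in the day 3 levels of the members was not tested. In the doxycycline groups, cultured without feeders, these markers summed to at most 4.25 TPM. Bmp2, Smad6 and Msx2 fell below the filter on low counts there when either d2-FVFp library was left out, so their calls rest on both.

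Of the other genes of the pathway, 51 were counted in lists by role. Their calls come from the fits with all libraries, and the alternatives were followed for the 10 members only. Without the 75-base libraries, or with same-clone libraries summed, d3ko against d3con called 0 higher and 1 lower of all genes. At most 1 of the calls given below for that comparison was therefore made there. Among 10 further ligand genes, 5 were tested over the day 0 and day 3 libraries, and from d0con to d3con 3 were called higher (Bmp5, Gdf2 and Gdf6) and 2 lower (Bmp8a and Bmp8b, near-identical copies whose counts are uncertain), where 20.6% of all genes tested were called higher and 14.6% lower. The first 3 reached the filter on low counts only at day 3 and the other 2 only at day 0, so these directions were fixed in advance. Bmp5, a ligand of the Bmp7 subgroup, had no count at day 0 and reached 7.23, 4.02 and 15.7 TPM in d3con and 5.33, 4.45 and 0.19 TPM in d3ko. Its summed counts were at least 165 times higher in d3con and at least 62.5 times higher in d3ko than a floor of 3 counts over the day 0 group. Between d3ko and d3con, where 3.51% of all genes were called lower, 1 of the 5 was called lower, Gdf2 (bone morphogenetic protein 9), with 2 counts against 82, a ratio of 39.3 (exact 95% interval 10.5 to 330.3, counting error only). Gdf2 reached the filter on low counts only in d3con, so it could not have been called higher in d3ko. Over the doxycycline libraries 2 of the 10 were tested and 1 was called higher (6.96% of all genes were), Bmp6, at 0.43 and 0.48 TPM in d2-FVFn and 2.02 and 3.71 TPM in d2-FVFp (2.59 on the log2 scale, SE 0.50, adjusted p = 0.016). Bmp6 reached the filter there only in d2-FVFp, so it could not have been called lower.

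Of 10 receptor and co-receptor genes 9 were tested, and 5 were called higher and none lower in d3con against d0con (20.6% and 14.6% of all genes), including the type II receptor gene Bmpr2 (2.43, SE 0.67, adjusted p = 0.0139) and the co-receptor gene Rgma. In d3ko against d0ko 1 was called higher, Rgma, where 11.6% of all genes were. Rgma was also the 1 called lower in d3ko against d3con, at 22.3, 17.8 and 23.1 TPM in d3con and 5.09, 6.37 and 1.64 TPM in d3ko (-2.28, SE 0.44, adjusted p = 0.0167), where 3.51% of all genes were. With doxycycline 8 were tested and 1 was called higher, the type I receptor gene Acvr1 (1.22 and 1.01 TPM against 2.80 and 3.67 TPM, log2 fold change 1.50, SE 0.36, adjusted p = 0.0314), where 6.96% of all genes were.

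Of the 4 signal-carrying Smad genes 3 were tested, and Smad1 was the 1 called in each day 3 comparison. It was at 14.7 and 14.1 TPM in d0con and 11.9 and 13.4 TPM in d0ko, and at 176, 136 and 257 TPM in d3con and 85.0, 84.3 and 47.3 TPM in d3ko. Smad1 rose by 3.51 in control cells (SE 0.34, adjusted p = 0.000219) and by 2.34 in ko cells (SE 0.32, adjusted p = 0.00186), and was lower in d3ko than in d3con without overlap (-1.39, SE 0.27, adjusted p = 0.0163). Of all genes, 20.6% and 11.6% were called higher in the day comparisons of control and ko cells, and 3.51% lower in d3ko against d3con. For d2-FVFp against d2-FVFn none of the 3 was called by edgeR, where 8.43% of all genes were. Smad1 (0.71, SE 0.16, adjusted p = 0.0257) and Smad4 (0.68, SE 0.18, adjusted p = 0.0399), the latter named after its values were seen, passed the threshold on the adjusted p but not that on the fold change.

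Secreted antagonists bind Bmp ligands outside the cell. Of 14 in the list, 8 were tested, and 7 were called higher and none lower in d3con against d0con, where 20.6% and 14.6% of all genes were. In d3ko against d0ko 5 were called higher (Nog, Fstl1, Cer1, Twsg1 and Bmper), where 11.6% of all genes were. Nog, Cer1 and Bmper reached the filter on low counts only at day 3, so neither day comparison could call them lower. The same held for Nbl1, called higher in control cells only, with 10 and 5 counts in d0con and 22 and 31 in d0ko. Cer1 had no count in d0con and stood at 545, 544 and 548 TPM in d3con, against 1.22, 56.4 and 1.87 TPM in d3ko, and the difference missed the threshold (adjusted p = 0.0501). Chrd, which encodes chordin, was the 1 called lower in d3ko against d3con, at 9.09, 20.05 and 6.90 TPM in d3con and 0.40, 2.19 and 1.02 TPM in d3ko (-3.32, SE 0.71, adjusted p = 0.0224), where 3.51% of all genes were. Chrd was also called higher in d2-FVFp, at 6.24 and 5.79 TPM against 0.35 and 0.94 TPM (3.15, SE 0.43, adjusted p = 0.00514), as 1 of 3 of the 7 tested there, with Fstl1 and Cer1 (6.96% of all genes were called higher). Cer1 and Chrd (10 and 32 counts in d2-FVFn) reached the filter there only in d2-FVFp, so neither could have been called lower.

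Inside the cell, 6 inhibitor genes other than the members were tested. Smad7, which inhibits both Bmp and Activin signals, was at 25.7 and 26.9 TPM in d0con, 25.8 and 29.0 TPM in d0ko, 7.49, 7.49 and 4.89 TPM in d3con and 25.6, 10.45 and 27.8 TPM in d3ko. It was the 1 of the 6 called lower in d3con against d0con (-2.18, SE 0.38, adjusted p = 0.00175), where 14.6% of all genes were. It was also the 1 called higher in d3ko against d3con (1.68, SE 0.35, adjusted p = 0.0211), where 4.75% of all genes were. As with Bmp4, d3ko replicate 2 was the lowest of its group. Tob1, an antiproliferative protein that binds Smads, was the 1 called with doxycycline, at 13.8 and 13.3 TPM in d2-FVFn and 43.6 and 29.0 TPM in d2-FVFp (1.37, SE 0.22, adjusted p = 0.00993), where 6.96% of all genes were called higher.

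Of 7 other response genes 5 were tested over day 0 and day 3. Hey1, a Notch and Bmp target, was at 23.3, 23.4 and 34.1 TPM in d3con and 6.18, 10.55 and 2.20 TPM in d3ko, lower in d3ko (-2.10, SE 0.47, adjusted p = 0.0257). Gata2, a transcription factor gene of blood and extraembryonic lineages, was higher in d3ko (3.07, SE 0.82, adjusted p = 0.0447), at 7.44, 2.56 and 14.5 TPM against 2.03, 0.26 and 0.51 TPM. Of all genes, 3.51% were called lower and 4.75% higher in d3ko against d3con. Over the doxycycline libraries 4 were tested and Hey1 was called higher, at 9.50 and 5.42 TPM against 3.12 and 2.97 TPM (1.24, SE 0.34, adjusted p = 0.0483), where 6.96% of all genes were.

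**Figure D4:**
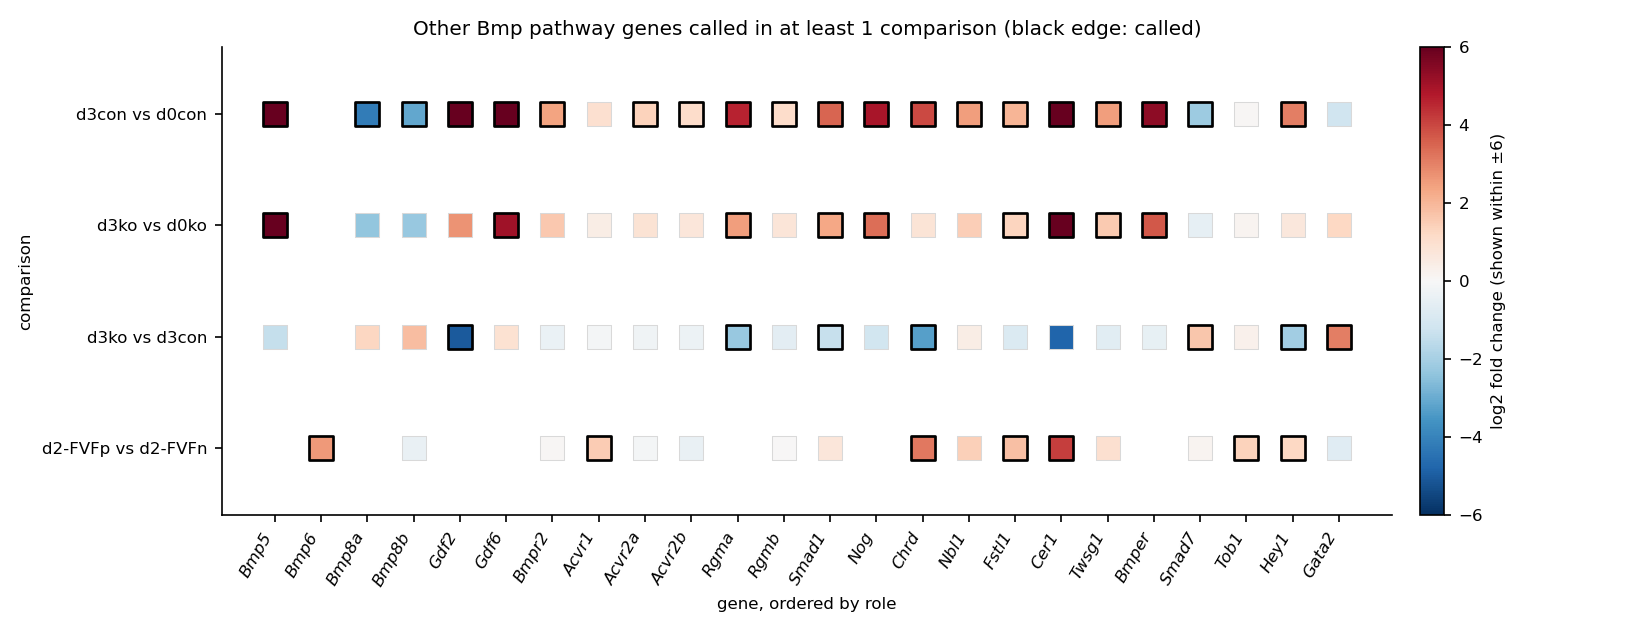
Log2 fold change (colour, shown within 6 in either direction) of the other Bmp pathway genes called in at least 1 comparison (horizontal axis, ordered by role) in 4 comparisons (vertical axis), with a black edge where called and no square where not tested. The d3ko against d3con row holds Gdf2, Rgma, Smad1, Chrd and Hey1 called lower and Smad7 and Gata2 called higher, in the fit with all libraries.

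The genes whose pattern over the 14 libraries was most like that of a member were found by Pearson's r of log2(TPM + 1) among 9382 genes with a mean of at least 5 TPM. For Bmp4 they were Exosc5 (r = 0.98), Triap1 (0.97) and Bcl3 (0.96). For Id1 they were Pqlc1 (0.91), Lypla2 (0.89) and Tpgs1 (0.87). For Bambi they were Klhdc10 (0.93), Rab10 (0.92) and Zfp592 (0.92), and for Msx2 they were Iah1 (0.97), Nlk (0.96) and Lrp1 (0.95). The libraries of a group share their day, medium and cell line, so the 14 points are not independent.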

How the data were processed

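Low-input RNA-seq was measured in 14 libraries. Per the labels and the study's methods, the authors aligned reads to mm10 with STAR and quantified each library with RSEM, versions not given in the sources used here. The deposited expected counts, which RSEM estimates by dividing shared reads among similar genes, were not scaled, and the deposited TPM are scaled by the authors for gene length and library total. Whether strand was used in counting was not given. Library totals ran from 14142788 to 27278237, and by the effective gene lengths in the tables, RSEM was run on 75-base reads for replicate 1 of d3con and d3ko, and on 50-base reads otherwise.

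Expected counts were rounded and tested with edgeR 4.0.16 (quasi-likelihood, TMM, Benjamini-Hochberg over all genes tested) in R 4.3.3, for genes with a CPM of at least 1 in at least 2 libraries. The 10 day 0 and day 3 libraries entered one fit with a mean per group, and the 4 doxycycline libraries another. Standard errors were obtained by dividing a log2 fold change by the square root of its F. Thresholds were an adjusted p under 0.05 and a log2 fold change over 1 in size, with an adjusted p under 0.01 and DESeq2 1.42.0 among the alternatives. Both fits were tested on simulated data. Groups and replicate numbers came from GEO's titles, and clones from the study's sample names. Nothing says that libraries of a clone came from separate cultures, so p-values measure the spread between these libraries, which may be technical.

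Same-numbered day 0 and day 3 libraries of a genotype (replicates 1 and 2) shared a clone, which pairs them, while day 3 replicate 3, the clone of replicate 1, had no day 0 partner of its number, and the deviations of the pairs correlated by only -0.03 to 0.07. The members and lists were chosen with earlier results of these data known. All 10 members were named, other pathway genes where called in at least 1 comparison, and the 3 genes most alike for Bmp4, Id1, Bambi and Msx2. Exact 95% intervals of count ratios were conditional binomial on pooled counts and cover counting error only, and a count of 0 was set to a floor of 3 counts over the group. Promoters came from RefSeq (GRCm38.p6). Marker lists held 6 pluripotency, 6 endoderm, 6 mesoderm and 9 fibroblast genes.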

Additional observations from a re-analysis of the deposited data

How the results depend on the processing

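Groups of 2 or 3 libraries from 2 clones limit these results. In d3con against d0con, 6 of the 9 calls held in all 17 alternatives, in d3ko against d0ko 3 of 9, in d3ko against d3con neither of 2 in all 19, and in the doxycycline line 1 of 6 (Id3). Every called member kept its sign wherever it had a value. Bmp2, Smad6 and Msx2 gave no doxycycline value with a mean count of at least 50 or without a d2-FVFp library (Msx1 none in the first), nor Bmp2 in d0ko against d0con with 2 groups, since they failed the filter there. Directions between group means were the same in CPM as in TPM, except for Msx1 at day 0.

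Counts of members called moved as follows. In d3ko against d0ko, 3 higher and 1 lower were called at an adjusted p under 0.01, by glmTreat against a 2-fold change, with 2 groups in the fit, and by DESeq2 on 2 groups against a 2-fold change (added after seeing the data, as were the clone sums and the fit without replicate 2). In d3ko against d3con the same 4 settings, the fit without the 75-base libraries and the clone sums called 0 higher and 0 lower, a clone block called 0 lower (Id3 adjusted p = 0.0657), and the fit without replicate 2 of both groups called 2 lower. DESeq2 called 1 member higher in the interaction. The doxycycline line gave 3 higher with a mean count of at least 50 and 1 with DESeq2 against a 2-fold change. Leaving out single libraries gave 2 to 5 higher and 1 to 4 lower (d3ko against d0ko), 0 to 1 and 0 to 1 (d3ko against d3con), 0 to 1 higher (interaction, 1 without d3ko replicate 2) and 3 to 6 higher (doxycycline). Of all genes, d3ko against d3con called 660 higher and 488 lower, but 415 and 401 with the replicate block, 997 higher with DESeq2, 0 and 1 without the 75-base libraries or with clones summed, and from 9 and 71 (without d3con replicate 3) to 1280 and 969 (without d3ko replicate 2).

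With the replicate number as a block, which pairs replicates 1 and 2 of day 0 and day 3 by clone but leaves day 3 replicate 3 (the clone of replicate 1) unpaired, 4 members were called higher and 4 lower in d3ko against d0ko (Bmp7 lost, although called with the clone as the block), and this block changed no other call of a member. Between d3ko and d3con the numbers do not pair clones (correlations 0.52, 0.29 and -0.02), and there 1 higher and 1 lower were called. In the doxycycline line, with 2 pairs correlated at 0.27, 6 were called higher.

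Changes of sign were seen only in members not called. In the interaction, Msx2 was -0.18 with the replicate block, -0.25 without the 75-base libraries and -0.81 to 0.64 without single libraries, Id1 was 0.11 with the clone block and -0.23 to 0.27 without single libraries, and Msx1 was -0.89 to 0.12. Without single libraries, d0ko against d0con gave -0.18 to 0.36 for Id2, -0.60 to 0.41 for Msx1 and -0.03 to 0.48 for Id3, d3ko against d3con gave -0.93 to 0.33 for Bmp2, -1.15 to 0.57 for Bmp7, -0.10 to 1.35 for Msx2, -0.53 to 0.01 for Id2 and -0.55 to 0.06 for Smad6, and the doxycycline line gave -0.05 to 1.27 for Msx1 and -0.11 to 0.80 for Bambi. The causes were not tested.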
